A study of Mus musculus with 6 samples.

Results

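The genes described here are 44 genes of the G2/M phase and of mitosis, read in fetal livers of Rb null and wild type mouse embryos. They were chosen by name for their known roles, but with earlier results of these data known. A probe set was taken for a gene when the platform annotation gave it that gene's symbol and no other. By that rule 37 of the 44 genes were on the array, out of 8251 genes in all, with 50 probe sets. Ccnb1, Cdc25b, Bub1b, Ncapd2, Cenpf, Hmmr and Tpx2 had no such probe set and are not analysed here. Of the 37 genes, 36 had a signal high enough to be tested, and Cenpe did not. The samples were whole livers of 6 untreated embryos at embryonic day 12.5 from matings of Rb heterozygous 129sv mice, 3 of them Rb null and 3 wild type, with 1 Affymetrix array per embryo. Livers were taken apart in saline before Trizol extraction, with no sorting of cells given, and the sources used here do not give the part of Rb1 that is deleted.

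Entry into mitosis is driven by cyclin A and cyclin B bound to the kinase Cdk1, helped by the Polo and Aurora kinases, and exit requires Cdc20 to switch on the anaphase-promoting complex once the spindle checkpoint is satisfied. Transcripts of these genes peak in G2 and mitosis. They are kept low in resting cells by a complex called DREAM, which holds the Rb relatives p107 and p130, and are switched on by B-Myb and Foxm1 through a promoter element named the cell cycle genes homology region, or CHR, and through CCAAT boxes bound by NF-Y. The retinoblastoma protein itself is best known for restraining E2F factors at the earlier step from G1 into S phase. The fetal liver of this stage makes red cells above all, and its erythroblasts pass through repeated divisions before they leave the cycle.

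Levels below are MAS5 signals, the brightness summary of a probe set after each array was scaled, given for each embryo in the order of its number or as mean ± SD over 3 embryos. Differences are given as log2 fold changes ± SE, negative where Rb null livers were lower, computed from the signal plus an offset of 50.02. This scale understates the change of dim genes. A gene was read on its brightest probe set, and it fell or rose if its adjusted p was below 0.05 over every tested probe set (limma with Benjamini-Hochberg adjustment). The number of arrays limits the precision. Rb1 itself gave a signal of 136 ± 7.52 in null livers against 750.1 ± 42.3 in wild type ones (-2.10 ± 0.09, adjusted p = 7.8e-06), and its dimmer probe set gave 89.1 ± 16.0 against 404 ± 25.5. Both Rb null means lay under the filter of 150.1, and a probe outside the deleted part would not check the labels. The 6 arrays had trimmed means of about 500.2, whereas median signals were 197 to 203 on Rb null arrays against 176 to 186 on wild type arrays (two-sided exact permutation test, p = 0.1, and no smaller p can be had with 3 embryos each). The 3 prime over 5 prime ratio of the Gapdh control probe sets was 0.829 to 0.888 against 0.915 to 0.924 (exact p = 0.1), and that of the actin controls was 1.19 to 1.31 against 1.12 to 1.21 (exact p = 0.2). The part of these array differences in the results was not tested.

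Mitosis genes that differed were lower in Rb null livers, and by small amounts. Of the 36 tested, 10 fell, none rose and 26 did not pass. Over all 5273 tested genes 9.5% fell, 13.1% rose and 22.6% did either, against 27.8%, 0 and 27.8% here. Of the 44 tested probe sets of these genes 11 fell and 0 rose, where 9.08% of all tested probe sets fell. At an unadjusted p below 0.05, 14 members were lower and 0 higher. The genes that fell were Ccna2, Birc5, Aurka, Mad2l1, Mki67, Prc1, Nek2, Ccnb2, Incenp and Ccnf. With the offset added, their Rb null levels were 72.3% to 87.9% of wild type, so no tested member changed as much as 2-fold. In whole livers, fewer dividing cells and less of each RNA per cell cannot be told apart. The median log2 fold change of the 36 genes was -0.11, and that of all tested genes was 0.02. The genotypes did not overlap, with Rb null lower, for 16 of the 36 members (44.4%) and for 17.6% of all tested genes, and no tested member showed the opposite separation on its brightest probe set, as 23.5% of all tested genes did. The other 26 tested members ranged from -0.31 to 0.16, with 17 of them below 0. The shares over all genes do not allow for signal level, and the members were brighter at the median. Among the brightest 528 tested genes 33.7% fell, as did 4 of the 12 members there.

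**Figure D1:**
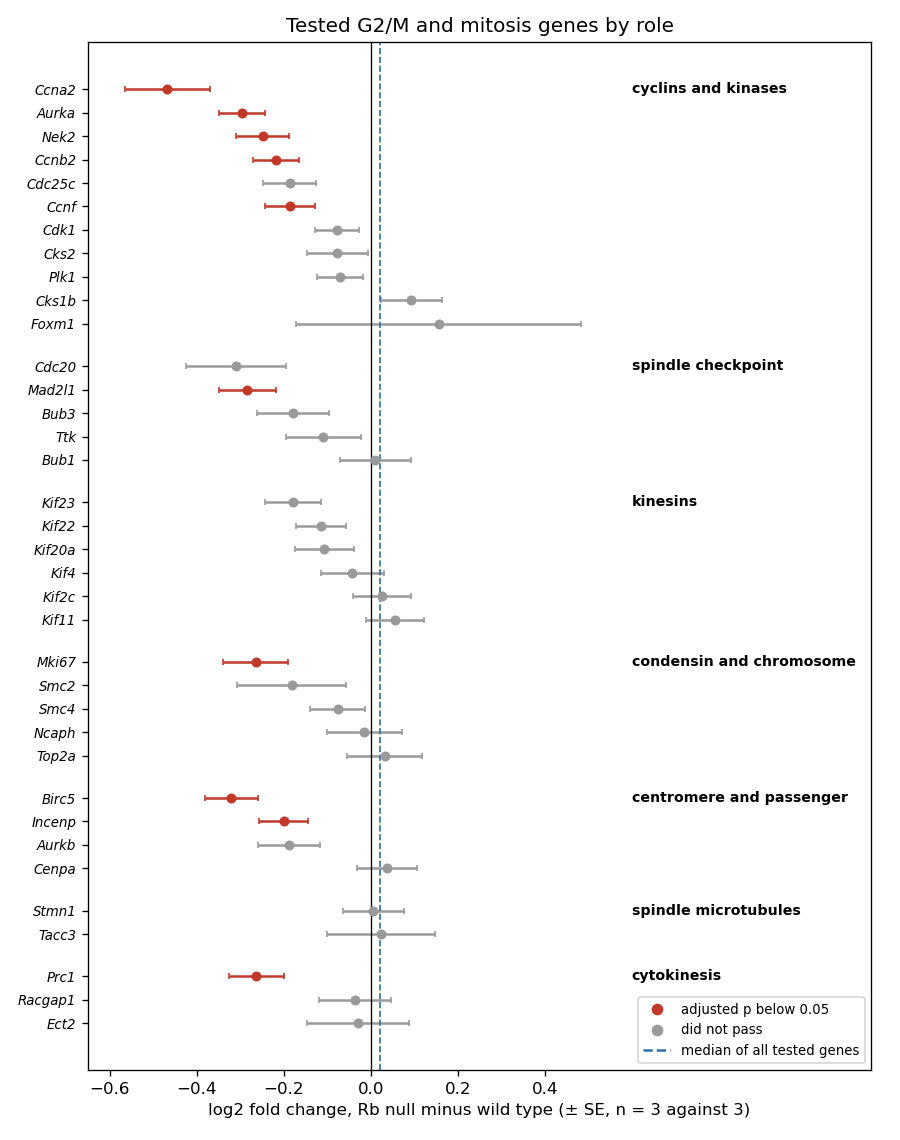
Log2 fold change of each of the 36 tested genes on the horizontal axis, Rb null minus wild type, as a point with its SE, grouped by role. Red points passed the test, grey points did not, and the dashed line is the median of all tested genes, 0.02. The genes that fell run from Ccna2 at -0.47 to Ccnf at -0.19 and come from 5 of the 7 groups.

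How firmly single calls stood depended on the embryos. Aurka and Birc5 fell under all 18 alternatives, which changed the scaling, the filter, the fit, the probe sets or the embryos included. Ccna2 fell under 17, missing only without Rb null embryo 2 (adjusted p = 0.051). Leaving out single embryos left 3 members lower without wild type embryo 3, 4 without Rb null embryo 1 or Rb null embryo 2, 5 without wild type embryo 1, 6 without wild type embryo 2 and 8 without Rb null embryo 3. Over all genes the share that fell dropped at the same time, to 4.86% without wild type embryo 3, 5.54% without Rb null embryo 1, 5.60% without Rb null embryo 2 and 6.50% without wild type embryo 1. The labels name a separate embryo for each array. The p values therefore rest on the spread between embryos and arrays together, which cannot be told apart.

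The promoters of these genes share sequence features that the choice of genes did not use. RefSeq promoter sequences of build GRCm38.p6, from 250 bases before to 50 after each annotated start, were found for 35 of the 44 genes. They were searched on both strands for the CHR letters TTTGAA or TTCGAA, for CCAAT and for the E2F letters TTTCCCGC, TTTGGCGC, TTTCGCGC or TTTGCCGC, counting matches that overlap and taking any window of a gene. A CHR match was in 27 of the 35 (77.1%) and in 21.7% of all 27025 genes with such a window. A CCAAT match was in 30 (85.7%) and in 41.1% of all, and both were in 26 (74.3%) and in 9.65% of all. A CHR match that began within 50 bases of the start was in 24 of the 35 (68.6%) and in 6.12% of all genes. An E2F match was in 2 (5.71%), in 2.6% of all genes and in 5.38% of the tested genes with a promoter. Of those tested genes 16.8% held a CHR match, 43.1% a CCAAT match and 8.61% both. Among tested genes with a promoter, CHR and CCAAT occurred together in 5 of 8 members that fell, in 16 of 20 that did not pass, and in 8.67% of all genes that fell. A match describes letters in the window and is not a binding site.

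The 250 bases before the start are shown for 4 genes that fell (Ccnb2, Ccnf, Aurka and Birc5) and for 2 that did not pass (Cdk1 and Top2a), 5′ to 3′ on the gene's strand, with matches in capitals.
Ccnb2 (chr9:70421555-70421804, minus strand): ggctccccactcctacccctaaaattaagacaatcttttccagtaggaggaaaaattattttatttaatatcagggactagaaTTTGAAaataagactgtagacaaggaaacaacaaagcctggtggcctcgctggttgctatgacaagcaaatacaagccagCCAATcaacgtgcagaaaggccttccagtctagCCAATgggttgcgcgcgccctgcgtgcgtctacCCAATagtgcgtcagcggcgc
Ccnf (chr17:24251410-24251659, minus strand): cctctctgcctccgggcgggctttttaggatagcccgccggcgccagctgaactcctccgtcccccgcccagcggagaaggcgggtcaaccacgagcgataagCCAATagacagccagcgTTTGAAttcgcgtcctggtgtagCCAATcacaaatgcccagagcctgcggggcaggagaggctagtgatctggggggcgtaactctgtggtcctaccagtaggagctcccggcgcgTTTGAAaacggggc
Aurka (chr2:172370571-172370820, minus strand): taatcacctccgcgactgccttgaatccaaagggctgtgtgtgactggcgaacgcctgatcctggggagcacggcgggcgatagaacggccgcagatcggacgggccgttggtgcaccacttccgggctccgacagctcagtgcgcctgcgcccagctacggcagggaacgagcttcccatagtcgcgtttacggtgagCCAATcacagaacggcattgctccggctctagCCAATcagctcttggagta
Birc5 (chr11:117848987-117849236, plus strand): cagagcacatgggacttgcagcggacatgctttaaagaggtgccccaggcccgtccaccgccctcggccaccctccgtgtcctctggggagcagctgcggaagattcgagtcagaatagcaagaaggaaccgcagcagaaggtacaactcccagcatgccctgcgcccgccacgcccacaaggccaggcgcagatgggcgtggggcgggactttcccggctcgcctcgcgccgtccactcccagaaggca
Cdk1 (chr10:69352913-69353162, minus strand): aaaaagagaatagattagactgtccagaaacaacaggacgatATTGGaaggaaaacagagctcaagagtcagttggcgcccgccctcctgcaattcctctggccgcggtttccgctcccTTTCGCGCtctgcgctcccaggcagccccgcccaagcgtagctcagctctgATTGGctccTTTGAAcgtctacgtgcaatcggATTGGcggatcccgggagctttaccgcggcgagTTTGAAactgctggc
Top2a (chr11:99024190-99024439, minus strand): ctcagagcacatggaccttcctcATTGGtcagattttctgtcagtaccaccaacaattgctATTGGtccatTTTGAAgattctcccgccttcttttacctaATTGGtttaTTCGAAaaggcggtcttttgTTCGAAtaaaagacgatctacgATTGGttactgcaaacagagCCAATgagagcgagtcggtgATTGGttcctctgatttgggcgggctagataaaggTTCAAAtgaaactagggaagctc

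In Ccnb2 the 3 CCAAT boxes began 33 bases apart from one to the next, and its second CHR match began at base 5 after the start, outside the part shown. In Aurka the CCAAT boxes were 32 bases apart and the CHR match began at base 33 after the start. Birc5, one of the most stable falls, had no match to any of these letters in its window, and neither had Mad2l1. Cdk1 and Top2a carried several CHR and CCAAT matches and did not pass the test. Over the 35 genes 31 pairs of neighbouring CCAAT boxes lay on the same strand, and 7 of these pairs, in 6 genes, were 31 to 34 bases apart. Spacing was counted in these genes only, on the first window of each, so no share over all genes stands beside it.

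**Figure D2:**
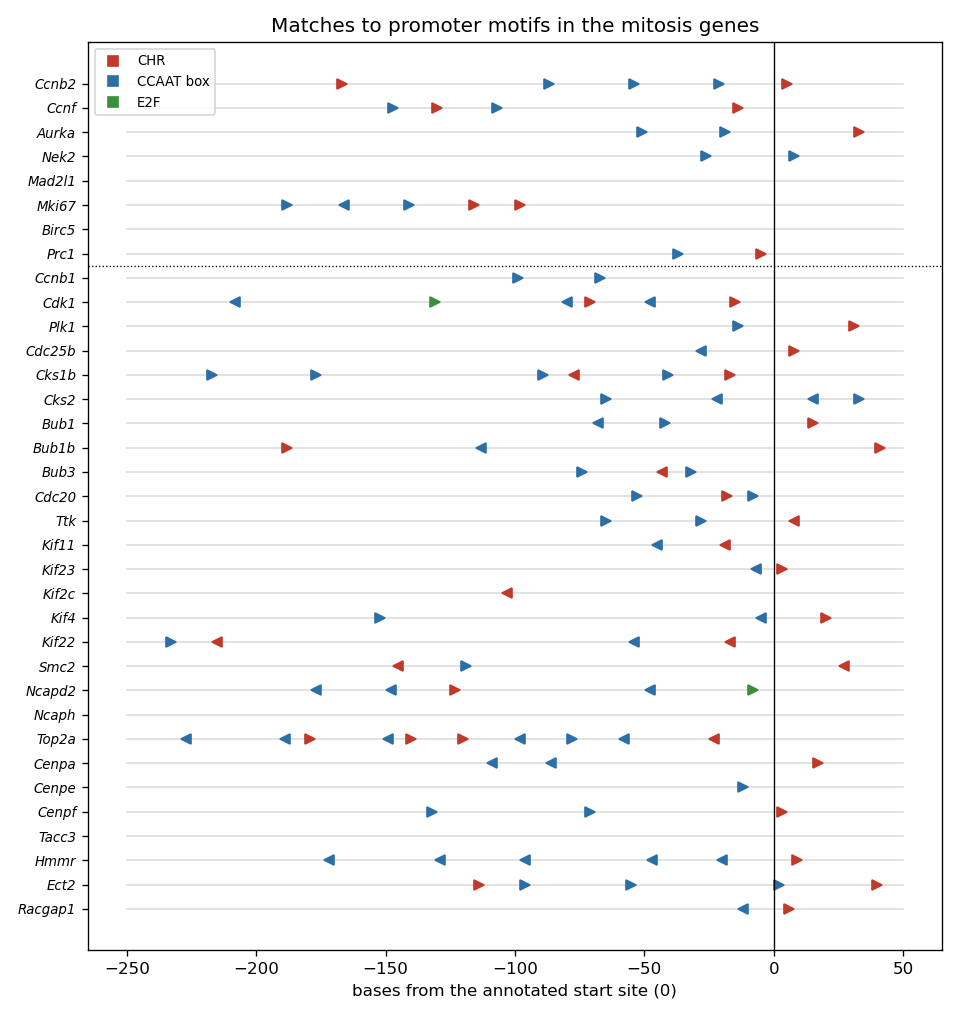
Positions of CHR (red), CCAAT (blue) and E2F (green) matches in bases from the annotated start for 35 genes, on the first window of each gene, with arrowheads giving the strand. The 8 genes above the dotted line fell, and the others did not pass or were not tested. Most rows carry a CHR match close to the start, within 50 bases of it in 24 of the 35 genes.

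Of the mitotic cyclins, kinases and their partners 11 were tested, and 5 fell. Counts of falls in this and the following groups stand beside 9.5% of all tested genes. Ccna2, the cyclin of S phase and of mitotic entry, read 2438, 2592 and 3052 in Rb null embryos and 3379, 3718 and 4119 in wild type embryos. The groups did not overlap, and Rb null embryo 3 lay closest to the wild type range. Its difference of -0.47 ± 0.10 (adjusted p = 0.013) was the largest among the tested members. Ccnb2, a B-type cyclin that activates Cdk1, read 5991, 5969.8 and 6289 against 6804, 7409 and 7045 (-0.22 ± 0.05, adjusted p = 0.023). It was the brightest tested member, and the groups did not overlap. The Ccnb2 call was lost under 8 of 18 alternatives, among them quantile (-0.05, adjusted p = 0.36) and cyclic loess normalization (-0.05, adjusted p = 0.46). It was also lost without a filter (adjusted p = 0.052) or without the intensity trend. Leaving out Rb null embryo 1 or 2 or wild type embryo 2 or 3 lost it as well (adjusted p from 0.067 to 0.082).

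Aurka, the kinase of centrosomes and spindle poles, whose promoter is shown above with a pair of CCAAT boxes, read 1060.5, 1078 and 1083 in Rb null embryos against 1335, 1322 and 1334 in wild type embryos. Replicates lay within a few percent of each other, and with the offset added Rb null livers held 81.4% of the wild type level (-0.30 ± 0.05, adjusted p = 0.0066). Nek2, a kinase that separates centrosomes, read 824, 826 and 832 against 980.4, 959 and 1038 (-0.25 ± 0.06, adjusted p = 0.023). Its Rb null values were nearly equal, and each wild type value lay well above them. Ccnf, a cyclin-like subunit of a ubiquitin ligase, read 1670.5, 1522 and 1554 against 1821, 1771 and 1823 (-0.19 ± 0.06, adjusted p = 0.0498). Ccnf stood at the threshold, and 12 of 18 alternatives put it outside, with adjusted p from 0.0503 to 0.14. The Nek2 call was lost without Rb null embryo 1 or 2 or wild type embryo 1 or 3 (adjusted p from 0.059 to 0.081).

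The central kinase gene Cdk1 read 2109, 2205 and 2086 in Rb null and 2222, 2241 and 2301 in wild type embryos. All Rb null values were the lower ones, but the difference was -0.08 ± 0.05 (95% interval -0.20 to 0.04, adjusted p = 0.31). Plk1, the Polo-like kinase, had 3 probe sets that did not move alike, at -0.07 ± 0.05, 0.07 ± 0.14 and -0.36 ± 0.11, and none passed (adjusted p = 0.38, 0.76 and 0.053). Cdc25c, a phosphatase that activates Cdk1, did not pass on its brighter probe set (-0.19 ± 0.06, adjusted p = 0.063), while its dimmer probe set read 330.4, 368 and 412 against 474, 461 and 475 and passed (-0.31 ± 0.09, adjusted p = 0.043). Both Cdc25c probe sets had every Rb null embryo below every wild type embryo.

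Cks1b and Cks2, small adaptor proteins of cyclin-dependent kinases, did not pass (0.09 ± 0.07 and -0.08 ± 0.07). Foxm1, a transcription factor of many genes of this set, gave values that varied within each genotype on its brighter probe set, with 699.5 to 1405 across Rb null embryos and 616 to 1482 across wild type embryos (0.16 ± 0.33, 95% interval -0.59 to 0.91, adjusted p = 0.78). Its dimmer probe set read 323, 367 and 414 against 277, 238 and 304, with every Rb null embryo above the wild type embryos (0.37 ± 0.12), and did not pass either (adjusted p = 0.056).

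Of 5 tested spindle checkpoint genes 1 fell. Mad2l1, which holds Cdc20 inactive until chromosomes are attached, read 2079.7, 2408 and 2360.3 in Rb null embryos against 2717, 2764 and 2870.0 in wild type embryos (-0.28 ± 0.07, adjusted p = 0.020). Rb null embryo 1 was the lowest and the groups did not overlap. The call was lost without that embryo (adjusted p = 0.053) or without wild type embryo 3 (adjusted p = 0.068), and after quantile (adjusted p = 0.058) or cyclic loess normalization (adjusted p = 0.054). Cdc20, the checkpoint's target and activator of the anaphase-promoting complex, read 3949, 4258 and 5110.3 against 4933, 5275 and 6336. Its mean difference of -0.31 ± 0.12 was larger than that of Mad2l1, but Rb null embryo 3 lay above wild type embryo 1 and it did not pass (adjusted p = 0.091). Without Rb null embryo 3, Cdc20 (-0.41, adjusted p = 0.036) and the checkpoint gene Bub3 (-0.27, adjusted p = 0.019) passed. With all embryos Bub3 was at -0.18 ± 0.08 and the kinase gene Ttk at -0.11 ± 0.09, and the kinase gene Bub1 was at 0.01 ± 0.08 (95% interval -0.18 to 0.20). The further probe sets of Bub1 and Bub3 had mean signals under the filter.

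The 6 kinesins, motor proteins that build the spindle and move chromosomes, were all tested and none passed the test. At an unadjusted p below 0.05 only Kif23 was lower. Kif23, the motor of the central spindle, read 955, 1026 and 936 in Rb null embryos against 1073, 1090.1 and 1159 in wild type embryos, without overlap (-0.18 ± 0.06, adjusted p = 0.082). Kif22, a motor on chromosome arms, read 2879, 2885 and 2827 against 3241, 2897 and 3182, where wild type embryo 2 nearly touched the Rb null range (-0.11 ± 0.06). Kif20a was at -0.11 ± 0.07 and -0.15 ± 0.08 on its probe sets. Kif11, which pushes spindle poles apart, was at 0.06 ± 0.07, Kif2c at 0.03 ± 0.07 and Kif4 at -0.04 ± 0.07, each with overlapping groups.

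Of the chromosome genes Mki67 fell and 4 others did not pass. Mki67 encodes Ki-67, the surface coat of mitotic chromosomes and a common marker of cycling cells. It read 3598, 3887 and 3293 in Rb null embryos against 4616, 4268 and 4075 in wild type embryos (-0.26 ± 0.07, adjusted p = 0.038). The groups were apart by less than the range within either genotype. The call was lost under 10 of 18 alternatives, with a difference of -0.15 after quantile normalization (adjusted p = 0.27) and of -0.17 for the mean of both probe sets (adjusted p = 0.35). The condensin subunits Smc2 (-0.18 ± 0.13), Smc4 (-0.08 ± 0.06) and Ncaph (-0.01 ± 0.09) had overlapping groups. Top2a, the topoisomerase that untangles sister chromatids, read 1810.3, 1866 and 1729 against 1909, 1534 and 1862, at 0.03 ± 0.09 with a 95% interval of -0.16 to 0.23.

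Of 4 tested genes of the centromere and the chromosomal passenger complex, 2 fell. Birc5, which encodes survivin and whose printed promoter holds none of the letters searched, read 1671, 1547 and 1596 in Rb null embryos against 1906, 2044 and 2099.6 in wild type embryos. The groups stood clearly apart, with Rb null livers at 80.1% of the wild type level once the offset was added (-0.32 ± 0.06, adjusted p = 0.0084). Incenp, the scaffold of the same complex, read 982, 940.2 and 941 against 1102, 1095 and 1113 (-0.20 ± 0.06, adjusted p = 0.038). Its dimmer probe set was at 0.10 ± 0.10, and the mean of both was -0.05 (adjusted p = 0.65). The Incenp call was lost under 9 of 18 alternatives, among them leaving out any 1 of the 6 embryos (adjusted p from 0.066 to 0.11).

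The complex's kinase gene, Aurkb, read 982, 909 and 834 in Rb null embryos against 1031, 1038 and 1049.6 in wild type embryos, again without overlap, but did not pass (-0.19 ± 0.07, adjusted p = 0.096). Cenpa, the histone that marks centromeres, was at 0.04 ± 0.07. Cenpe read 42.7 to 74.1 in Rb null and 69.4 to 112 in wild type embryos on its brighter probe set, under the filter, and was not tested.

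Of the 3 cytokinesis genes, Prc1 fell and 2 did not pass. Prc1, which bundles microtubules of the central spindle, read 1831, 1804 and 1767 in Rb null embryos against 2213, 2004 and 2304 in wild type embryos (-0.26 ± 0.06, adjusted p = 0.022). Wild type embryo 2 was the nearest to the Rb null range and still lay above it. The call was lost without any single embryo other than wild type embryo 2 (adjusted p from 0.054 to 0.076). Ect2 and Racgap1, which act at the cleavage furrow, were at -0.03 ± 0.12 and -0.04 ± 0.08. The microtubule regulators Stmn1 (0.01 ± 0.07) and Tacc3 (0.02 ± 0.12) had overlapping groups. Tacc3, the dimmest of the tested members, read 211, 202 and 199.9 in Rb null embryos against 243, 189 and 174 in wild type embryos (adjusted p = 0.92).

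**Figure D3:**
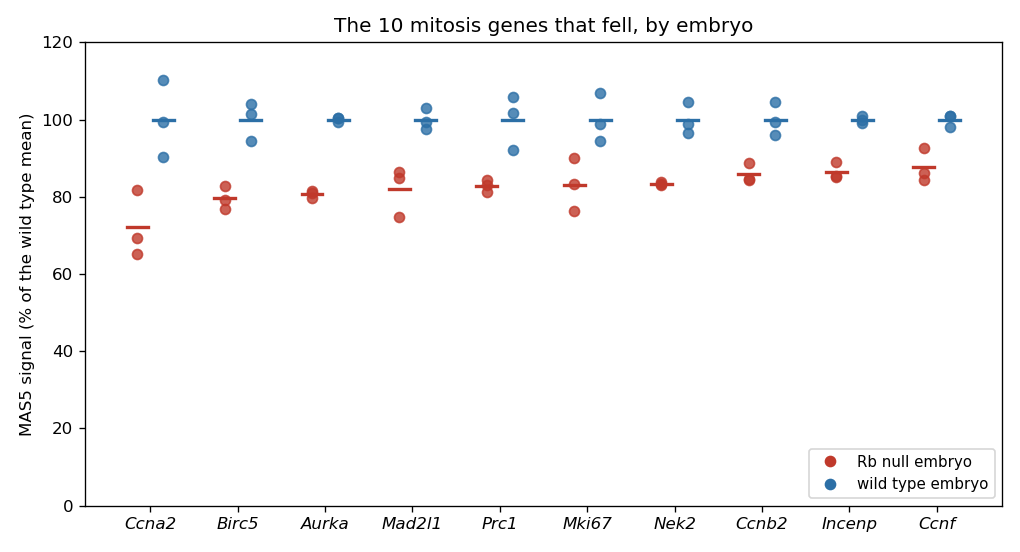
MAS5 signal of the 10 genes that fell, as a percentage of each gene's wild type mean, with a point for each embryo (Rb null red, wild type blue) and a short line at each group's mean. In every gene the 3 Rb null embryos lie below the 3 wild type embryos, and the Rb null points of Aurka and Nek2 lie closest together.

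Genes of mitosis beyond the 44 were read from a list of 98 others, of which 60 were on the array and 56 tested. Of these 9 fell, 1 rose and 46 did not pass, so 16.1% fell beside 9.5% of all tested genes, and the median was -0.02. Cdkn3, a phosphatase acting on cyclin-dependent kinases, read 352, 434.8 and 367 in Rb null embryos against 540.2, 752 and 691 in wild type embryos, without overlap (-0.70 ± 0.13, adjusted p = 0.0073). This was a larger difference than that of any of the 36 tested members. Ran (-0.31 ± 0.06, adjusted p = 0.0092) and Ranbp1 (-0.33 ± 0.06, adjusted p = 0.0068), the GTPase that guides spindle assembly and its binding protein, fell, but the Ran call was lost after quantile (-0.09, adjusted p = 0.081) or cyclic loess normalization (-0.09, adjusted p = 0.11). Mybl2, which encodes B-Myb, fell on its bright probe set (-0.41 ± 0.09, adjusted p = 0.016), and not on the mean of both probe sets (-0.14, adjusted p = 0.42) or without Rb null embryo 2, wild type embryo 1 or wild type embryo 3 (adjusted p from 0.051 to 0.055). Anapc5, a subunit of the anaphase-promoting complex (-0.29 ± 0.07), Nfyc, a subunit of NF-Y (-0.24 ± 0.06), and the kinetochore gene Zw10 (-0.53 ± 0.13, to a mean of 137 under the filter) also fell. The Anapc5 call was lost after quantile (-0.13, adjusted p = 0.21) or cyclic loess normalization (-0.13, adjusted p = 0.18) and when Rb null embryo 2 or 3 or wild type embryo 2 or 3 was left out (adjusted p from 0.055 to 0.066). The Zw10 call was lost under 5 of 17 alternatives, among them without Rb null embryo 2 or any 1 wild type embryo (adjusted p from 0.062 to 0.066). Kifc1 (-0.45 ± 0.12, adjusted p = 0.033), a kinesin of spindle poles, and Cdca8 (-0.20 ± 0.06, adjusted p = 0.038), which encodes borealin of the passenger complex, fell too and are named here after their values were seen. The Cdca8 call was lost under 10 of 18 alternatives, among them quantile (adjusted p = 0.070) and cyclic loess normalization (adjusted p = 0.075), the replicate block (adjusted p = 0.051) and every left-out embryo other than wild type embryo 1 (adjusted p from 0.072 to 0.12). The Kifc1 call was lost under 6 of 17, without a filter (adjusted p = 0.066) and for the same 5 left-out embryos (adjusted p from 0.068 to 0.088). A dimmer Nfyc probe set was higher in every Rb null embryo (0.35 ± 0.11, adjusted p = 0.053), and the mean of both was 0.06 (adjusted p = 0.64). The Nfyc call was lost without Rb null embryo 2 or 3 or wild type embryo 1 or 3 (adjusted p from 0.053 to 0.073).

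Counts by role stand beside 9.5% of all tested genes that fell and 13.1% that rose. Of anaphase-promoting complex and separase genes 1 of 12 fell, near that share. The list of kinetochore genes also held the passenger complex gene Cdca8, and 2 of 6 fell there, Zw10 and Cdca8. Falls were 3 of 14 among further spindle genes and 1 of 6 among mitotic entry genes. They were 2 of 7 among genes that act in the transcription of mitotic genes and 0 of 5 among further cytokinesis genes. Of 6 genes of cohesin and the second condensin 1 rose and none fell. The riser was Stag2, a cohesin subunit, with 1774, 1800.3 and 1826 in Rb null embryos against 1555, 1569.9 and 1557 in wild type embryos (0.20 ± 0.05, adjusted p = 0.025). The Stag2 call was lost after median scaling (0.06, adjusted p = 0.47), on leaving out any 1 embryo (adjusted p from 0.052 to 0.074), without the intensity trend (adjusted p = 0.054) and with both Stag2 probe sets averaged (0.12, adjusted p = 0.19). Rbl1, which encodes p107, was at 0.05 ± 0.07, and Rbl2, which encodes p130, lay under the filter.

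Differences in Rb null livers varied with signal level, and the mitosis genes lay towards the bright end. The median signal of the 36 members was 1693 and that of all tested genes was 633. With the tested genes cut by signal into 10 classes of equal size, the brightest class had a median log2 fold change of -0.15 and 33.7% of its genes fell. It held 12 members, of which 4 fell, a share close to that of all genes in the class. In the class next to it 20.9% of genes fell, and 3 of 7 members. The class with mean signals from 823 up to 1115 held 10 members, 2 of which fell, where 8.33% of all genes did. Scalings moved the members' counts, and those of all genes not always to the same extent. With equal array medians 20 members fell in place of 10. Over all tested genes 1097 then fell and 363 rose in place of 501 and 690, and their median moved to -0.10. With quantile or cyclic loess normalization 7 members fell. Over all tested genes 462 fell and 557 rose after quantile normalization, and 436 fell and 573 rose after cyclic loess normalization. Relative to the median of all genes, the members' median was -0.13 as deposited, -0.14 after median scaling, -0.06 after quantile and -0.07 after cyclic loess normalization.

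**Figure D4:**
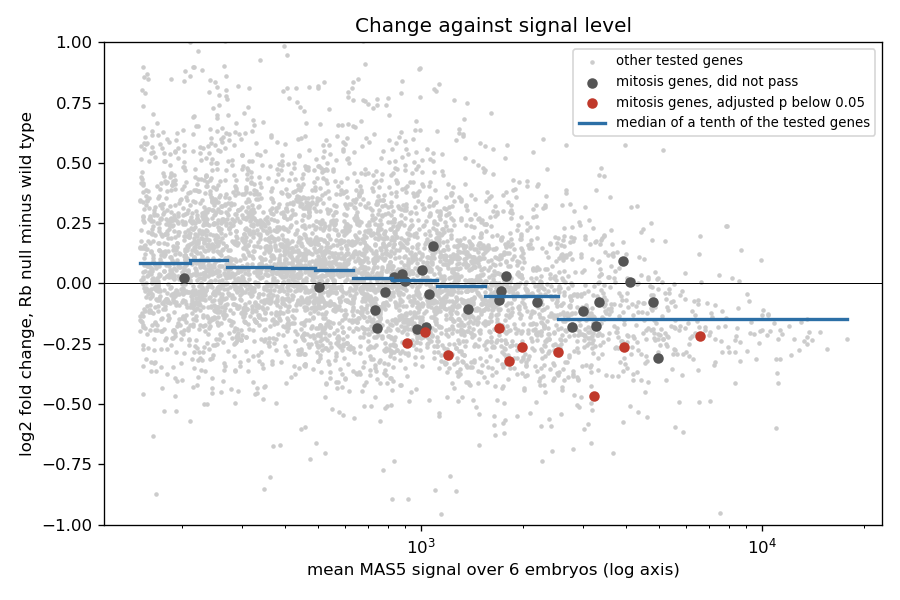
Log2 fold change, Rb null minus wild type, against mean MAS5 signal over 6 embryos on a log axis, for all tested genes (light grey) and the mitosis genes (dark grey and red), with blue lines at the median of each of 10 equal classes of genes by signal. The blue lines go from 0.09 in the dimmest class to -0.15 in the brightest, and the red points lie between -0.47 and -0.19. A further 31 genes lie beyond the vertical axis.

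The neighbouring steps of the cycle gave values of the same order. Of 42 tested DNA replication and nucleotide synthesis genes 8 fell (19.0%) and none rose, with a median of -0.12, against 27.8% and -0.11 for the mitosis genes. Of 11 tested G1 cyclins, kinases and inhibitors 2 fell and 1 rose, with a median of -0.10. Of all tested genes 9.5% fell and 13.1% rose. No test of a difference between these lists was made. In each embryo the median deviation of the 36 mitosis genes from their 6-embryo mean was -0.07, -0.04 and -0.07 in Rb null embryos 1, 2 and 3, and 0.07 in each wild type embryo. The replication genes gave -0.08 to -0.04 against 0.04 to 0.07.

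**Figure D5:**
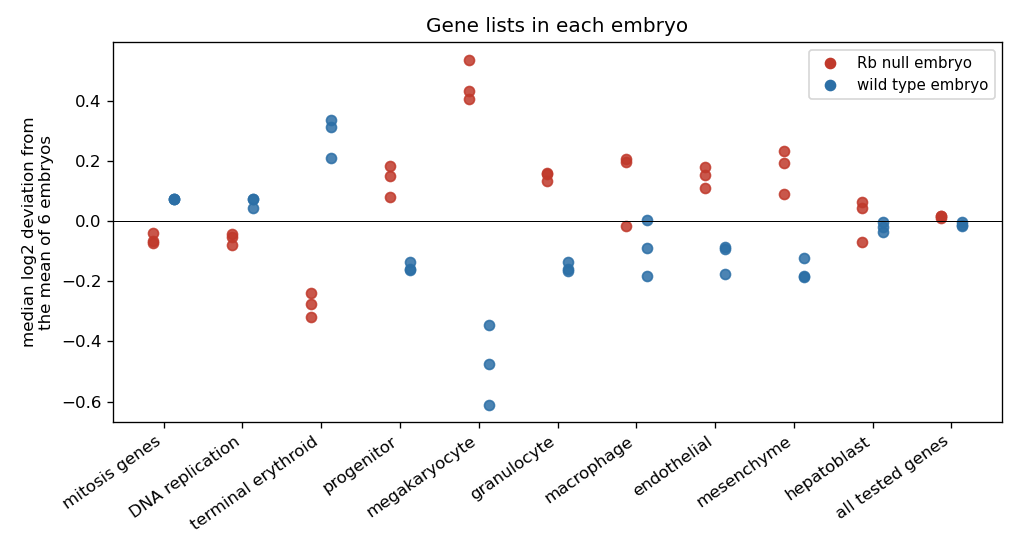
Median log2 deviation from the 6-embryo mean of the tested genes of each list, with a point for each embryo. Rb null embryos are red and wild type embryos blue. Mitosis and replication genes lie between -0.08 and 0.07, the terminal erythroid list between -0.32 and 0.34 and the megakaryocyte list between -0.61 and 0.54.

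Some markers of the liver's cell types also differed between these livers. Their part in the mitosis result was not tested. The counts below stand beside 13.1% of all tested genes that rose and 9.5% that fell, and no list was tested as a set. Dim genes lay slightly above 0 in general, with a median of 0.09 in the dimmest class. Terminal erythroid genes had a median signal of 5560, from 1268 for Ube2o to 17732 for Hba-a1. Of 11 tested 9 fell, and their median log2 fold change was -0.55. Their summed signal was 52350.4 to 57993 in Rb null and 72594 to 77923 in wild type embryos. Of 6 tested progenitor markers 2 rose, the receptor gene Kit (0.76 ± 0.11, adjusted p = 0.0024) and the transcription factor gene Myb (0.26 ± 0.07, adjusted p = 0.031), with list sums of 5804 to 6232 against 4712 to 4859.5. Megakaryocyte markers rose in 3 of 4 (2557 to 2984 against 1539 to 1641), granulocyte markers in 5 of 8 (11794 to 11903 against 9079 to 9190.3) and macrophage markers in 3 of 9 (4929.8 to 5451 against 4409 to 4828). Endothelial markers rose in 2 of 7 (4668 to 5093 against 3926 to 4159.6) and mesenchyme markers in 4 of 7 (12141 to 13756 against 9699 to 10122.5). Hepatoblast markers rose in 1 of 9 and fell in 2 (36198 to 38885 against 39051 to 42554). The bright genes Alb (-0.20) and Apoa1 (-0.31) were the hepatoblast markers that fell, while the median of that list was 0.096 and its median deviation by embryo overlapped between genotypes. No marker was listed at 0, and Pf4, Ctsg, Adgre1, Pecam1, Des, Pdgfrb, Meis1, Mecom and Hoxa9 lay under the filter. These untested genes are included in the sums of their lists.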

How the data were processed

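RNA of 6 fetal livers was read on 1 array each. The authors made the deposited intensity values with MAS5, per the submitters' processing notes, and its version and settings are not given in the sources used here. The values are linear, and the 2% trimmed mean of each array lies at about 500.2. Probe sets were named by the platform annotation (10833 with 1 gene symbol, 396 with several, 1193 with none), and 66 array controls were left out. From the deposited signals, log2 of signal plus 50.02 was compared in limma 3.58.1 (R 4.3.3), with an intensity trend and no covariate, for probe sets whose mean signal exceeded 150.1. Adjustment was over 6793 probe sets. A two-sided exact permutation test was used for array values. The procedure was tested on simulated data. All members on the array are described. The rule gave values by embryo to members that passed the test and, in a group with none, to the member with the smallest p. For Cdk1, Cdc20, Top2a, Aurkb and Kif22 they were added after values were seen. Values by embryo for the dimmer probe sets of Cdc25c and Foxm1 are also given beyond that rule. Of other mitosis genes the rule named the 8 with the smallest p that passed. The members, lists and alternatives were chosen with earlier results of these data known. Promoters came from RefSeq, and nothing was fitted to them.

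As alternatives, arrays were scaled by quantile, median or cyclic loess. The offset was set to 10.00 or to 150.1, and the filter was dropped or raised to 500.2. The intensity trend was left out or made robust, and the replicate number entered as a block. Probe sets of a gene were averaged, those with a suffix letter s, f, r, g or i were removed, and each embryo was left out in turn.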

Additional observations from a re-analysis of the deposited data

How the results depend on the processing

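With 3 embryos per genotype the count of genes that passed moved with single embryos, while none of the tested members rose under any of the 18 alternatives. The 10 members that fell became 20 after median scaling and 6 without the intensity trend, and 3 to 8 on leaving out single embryos. The median of the 36 tested members, -0.11, became -0.079 after quantile and -0.082 after cyclic loess normalization, -0.24 after median scaling and -0.13 without suffixed probe sets, and -0.12 to -0.10 without single embryos. Over all tested genes median scaling gave 1097 lower and 363 higher, against 501 and 690. Of the other mitosis genes 17 fell after median scaling, and 3 to 7 without single embryos. The number that rose was 0 after median scaling, without the intensity trend, with the mean of probe sets and with any 1 embryo left out, and 2 after cyclic loess normalization. Some differences that had not passed changed sign, and the cause was not tested. After quantile normalization these were Bub1 (-0.025), Cks2 (0.053), Ect2 (0.0033), Kif22 (0.0063), Kif2c (-0.016), Smc4 (0.027) and Tacc3 (-0.083). After median scaling they were Bub1 (-0.12), Cenpa (-0.094), Cks1b (-0.044), Kif11 (-0.076), Kif2c (-0.10), Stmn1 (-0.13), Tacc3 (-0.088) and Top2a (-0.10). After cyclic loess normalization they were Bub1 (-0.011), Cks2 (0.061), Ect2 (0.0085), Kif2c (-0.0017), Smc4 (0.026) and Tacc3 (-0.088). Nfyc, which had passed, was at 0.058 for the mean of its probe sets. Without single embryos the sign also changed for Bub1 (-0.064 to 0.051), Cenpa (-0.013 to 0.072), Ect2 (-0.13 to 0.076), Foxm1 (-0.16 to 0.46), Kif2c (-0.0027 to 0.073), Ncaph (-0.058 to 0.056), Racgap1 (-0.10 to 0.0091), Stmn1 (-0.052 to 0.045), Tacc3 (-0.057 to 0.14) and Top2a (-0.064 to 0.089).

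With the replicate number as a block 9 members fell, 8 of them shared with the fit without it. Ccnf (adjusted p = 0.059) and Incenp (adjusted p = 0.061) no longer passed, and Cdc20 did (adjusted p = 0.0081). Deviations of same-numbered embryos correlated at -0.06, 0.05 and 0.27 over genes, and those of differently numbered embryos at -0.25 to 0.22. These values cannot decide whether the numbers pair the embryos, because deviations were taken from the mean of only 3 embryos. The main fit did not pair them.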
